A study of Mus musculus with 6 samples.

Results

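The magnesium transport genes followed were 10: Nipal1, Nipal2, Nipal3, Nipa1 and Nipa2 of the NIPA family, Cnnm2, Cnnm3 and Cnnm4 of the CNNM family, and the single genes Trpm7 and Slc41a1. They were taken by symbol from the 49315 genes of the count files, and all 10 were among the 18250 genes that passed the filter on low counts. Nipal1 was selected on its lower counts in KO than in WT in these same libraries, and the other 9 were chosen as related transporters with their CPM in view. The difference between genotypes is therefore a description for all 10, with no test. The cells were granulosa cells freshly isolated from ovaries of female C57BL/6J mice aged 8 to 9 weeks, with 3 libraries labelled wild type (WT) and 3 labelled knockout (KO) for Jmjd3, also named Kdm6b, which was deleted in granulosa cells. JMJD3 is an enzyme that removes the repressive methyl mark from lysine 27 of histone H3. The driver of the deletion, the exons removed, and whether a library came from 1 animal or a pool are not stated in the labels, so the spread between replicates may be technical.

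The libraries held 42379018 to 49901493 counts over genes. Levels are given as CPM, counts scaled to a common library size after TMM adjustment, and 1 CPM stood for 42.5 to 51.4 counts. Kdm6b itself, checked first, had levels of 72.8, 66.3 and 66.2 CPM in the WT libraries and of 64.7, 68.6 and 112 CPM in the KO libraries, so the whole-gene count did not separate the genotypes (log2 fold change 0.26 ± 0.22 SE, adjusted p = 0.755, edgeR). The grouping below rests on the labels alone. All 12 granulosa cell markers were present in each group, with means in WT and KO of 123 and 128 CPM for Fshr, 112 and 123 CPM for Foxl2, and 901 and 827 CPM for Amh. Not all were so close: Cyp19a1 had means of 226 and 555 CPM and Inhba of 1005 and 1469 CPM. Both rested on KO replicate 3, at 1113 and 2202 CPM, and the groups overlapped in each. Among these 12 markers, 2 passed the test, where 0.219% of all tested genes did. Like Nipal1, both were lower in each KO library than in each WT library. Amhr2, the receptor gene for anti-Müllerian hormone, had means of 267 and 133 CPM (log2 fold change -1.01 ± 0.09 SE, adjusted p = 0.00212, edgeR), and the transcription factor gene Wt1 had means of 93.0 and 64.0 CPM (-0.54 ± 0.07 SE, adjusted p = 0.0246, edgeR). Inha (means of 6833 and 8478 CPM) and Gata4 (227 and 291 CPM) were higher in each KO library than in each WT library, and neither passed. Of all tested genes, 15.6% did not overlap between the groups. Markers of other cell types were present too, and the summed levels of some did not overlap between the groups. The 7 oocyte markers summed to 521 to 673 CPM in WT and 411 to 465 CPM in KO, the 5 theca markers to 173 to 242 and 276 to 414 CPM, and the 6 red blood cell markers to 383 to 798 and 830 to 2259 CPM. The theca difference rested on Cyp17a1, with means of 95.6 and 231 CPM. Insl3 (1.46 and 2.41 CPM) was also higher in KO. Ptch1 (88.6 and 82.9 CPM), Gli1 (2.29 and 1.88 CPM) and Tcf21 (11.0 and 9.98 CPM) had lower means in KO. No oocyte or theca marker passed the test and 1 red blood cell marker did, where 0.219% of all tested genes passed. No marker of these 3 lists was at 0 in any library. In bulk RNA, fewer cells of a type and less RNA per cell cannot be told apart. KO replicate 3 stood apart in many genes and is named where it decides a value. Without it 421 of 18622 tested genes passed the test, against 40 of 18250 with it.

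Magnesium is the most abundant divalent cation inside cells, where it accompanies ATP and stabilises ribosomes and nucleic acids. Cells take it up through channels such as TRPM7, which carries a kinase domain on the same protein, and through NIPA-type carriers. They move it out again with sodium-coupled SLC41A1 and with CNNM proteins, whose own transport activity is debated and which are inhibited by binding to PTP4A (PRL) phosphatases. NIPA1 is mutated in a hereditary spastic paraplegia in humans and lowers BMP receptor levels at the cell surface, and human CNNM2 and CNNM4 are mutated in familial low blood magnesium and in Jalili syndrome. None of these roles was measured here.

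The promoters of the members were read from RefSeq (build GRCm38.p6) as the 250 bases before each annotated start, and 9 of the 10 members matched. Shown are Nipal1, as the gene that differs between the groups, Nipa2 and Cnnm3, which hold a half-site of the NR5A receptors that drive ovarian steroid genes, and Cnnm4, which holds a full cyclic AMP response element. Capitals mark the motifs found on either strand: the Sp/KLF GC box GGGCGG, the NR5A half-site AAGGTCA, the forkhead motif GTAAACA, the cyclic AMP response element TGACGTCA and its half-site TGACG, which lies within the full element. Adjacent GC boxes can overlap, and the GATA motif AGATAA was searched as well but was not found in any member's window.
Nipal1 (chr5:72647546-72647795, plus strand): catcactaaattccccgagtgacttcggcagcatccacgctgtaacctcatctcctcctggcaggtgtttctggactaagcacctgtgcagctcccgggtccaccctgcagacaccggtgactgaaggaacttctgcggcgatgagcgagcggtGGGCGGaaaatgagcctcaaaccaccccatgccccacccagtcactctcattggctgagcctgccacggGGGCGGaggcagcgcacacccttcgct
Nipa2 (chr7:55962494-55962743, minus strand): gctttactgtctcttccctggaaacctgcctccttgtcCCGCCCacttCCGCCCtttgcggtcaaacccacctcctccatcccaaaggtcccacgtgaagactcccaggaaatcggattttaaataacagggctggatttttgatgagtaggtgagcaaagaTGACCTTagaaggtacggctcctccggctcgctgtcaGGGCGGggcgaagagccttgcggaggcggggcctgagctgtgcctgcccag
Cnnm3 (chr1:36511617-36511866, plus strand): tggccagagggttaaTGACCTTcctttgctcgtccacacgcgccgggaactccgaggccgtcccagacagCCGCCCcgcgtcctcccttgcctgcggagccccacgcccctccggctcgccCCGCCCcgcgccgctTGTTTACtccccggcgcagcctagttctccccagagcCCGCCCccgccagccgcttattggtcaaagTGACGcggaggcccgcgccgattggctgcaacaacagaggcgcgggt
Cnnm4 (chr1:36471347-36471596, plus strand): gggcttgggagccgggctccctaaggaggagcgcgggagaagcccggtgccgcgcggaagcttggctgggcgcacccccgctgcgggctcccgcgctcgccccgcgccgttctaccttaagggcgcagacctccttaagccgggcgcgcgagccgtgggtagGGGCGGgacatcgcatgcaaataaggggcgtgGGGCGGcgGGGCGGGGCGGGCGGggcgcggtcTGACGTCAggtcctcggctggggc

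The Nipal1 window held 2 GC boxes, starting 96 and 27 bases before the start, and none of the other motifs. A GC box lay in 9 of the 10 windows of the 9 members, all but that of Trpm7, against 32.7% of 32841 mouse promoter windows of the same length. The NR5A half-site of Nipa2 started 88 bases and that of Cnnm3 235 bases before the start, and 4.08% of all windows held one. The full cyclic AMP response element of Cnnm4 started 24 bases before the start, and 1.55% of all windows held one. All member windows were richer in CpG than the median window, which held 6 CpG: Nipal1 had 14, more than 70.6% of all windows, and the members ranged from 12 in Nipa2 to 34 in Cnnm4. The GC box itself contains a CpG, and the windows it was compared with were not matched for CpG. These are matches of letters, and binding was not measured.

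Nipal1, a magnesium carrier of the NIPA family, was lower in every KO library than in every WT library. It lies on chromosome 5 (72647795 to 72671078, plus strand, GRCm38; ENSMUSG00000067219), with 6 merged exons and a counted length of 4393 bases. Its raw counts were 2849, 2827 and 2656 in WT replicates 1 to 3 and 1514, 1417 and 1572 in KO replicates 1 to 3. As CPM these were 55.4, 59.3 and 52.7 in WT and 32.3, 33.4 and 32.6 in KO. The 3 KO libraries lay close together, and the lowest WT library was well above them. The group means were 55.8 ± 3.35 and 32.8 ± 0.55 CPM (SD, n = 3), so KO stood at 0.587 of WT. The log2 fold change was -0.77 ± 0.07 (SE; 95% interval -0.93 to -0.61). The spread was 6.00% of the mean in WT and 1.68% in KO, where counting error alone comes to as much as 2.66%. No other annotated gene overlaps Nipal1, and the value without KO replicate 3 was -0.77. The summed oocyte markers were also lower in each KO library than in each WT library, as were 3 of the 7 taken singly (Gdf9, Zp2 and Zp3). Of all tested genes, 7.89% were lower in this way, and none of the 7 markers passed the test. The part of oocyte RNA in the Nipal1 result was not tested.

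Of the 10 members, Nipal1 alone was past an adjusted p of 0.05 in the fit over all genes, where 0.219% of the tested genes were (0.0932% with a lower level in KO). Nothing is read from this count, since the same contrast chose the gene. The groups did not overlap in 3 members, Nipal1 (lower in KO) and Nipa2 and Slc41a1 (higher in KO), against 15.6% of all tested genes (7.89% lower and 7.68% higher in KO). The log2 fold changes of the 9 others ran from -0.08 to 0.20 with a median of 0.12, where the median of all tested genes was 0.00.

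**Figure D1:**
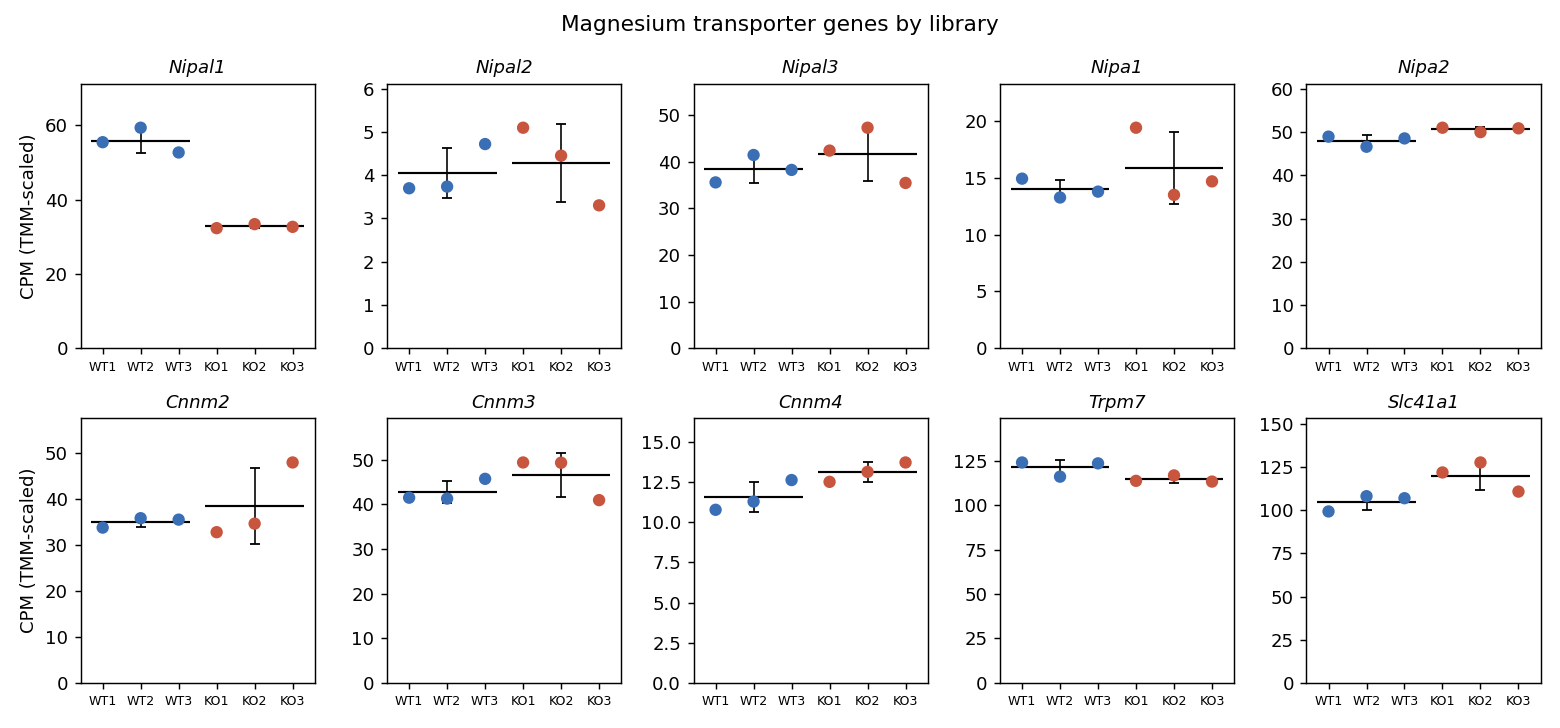
CPM (vertical axes, from 0) of the 10 members in each of the 6 libraries. Points are libraries, lines are group means and bars are ± 1 SD with n = 3; the KO libraries of Nipal1 sit at 32.3 to 33.4 CPM against 52.7 to 59.3 CPM in WT, while most other members overlap between groups.

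The order of the transporters in granulosa cells was read per length, as CPM divided by the counted kilobases of each gene. In WT, Slc41a1 had the highest level at 21.3 ± 0.98 CPM per kilobase (SD, n = 3), above 85.2% of all tested genes. Nipal1 was next at 12.7 ± 0.76, followed by Trpm7 at 10.7 ± 0.40 and Cnnm2 at 9.85 ± 0.31 CPM per kilobase. Each of these 4 was separated from its neighbour in the order, with no overlap between the 3 libraries of one and those of the next. The spread between libraries does not cover an error in the counted length, which all libraries share. Nipa2 (6.80 ± 0.18) and Cnnm3 (6.67 ± 0.39) came next and overlapped, so their order is not resolved. Nipal3 (5.07 ± 0.39), Nipa1 (4.395 ± 0.27), Cnnm4 (2.40 ± 0.20) and Nipal2 (1.06 ± 0.15 CPM per kilobase) followed, and neighbours among these did not overlap. Nipal1 was thus the most abundant NIPA family transcript per length in WT.

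In KO, Slc41a1 again had the highest level, at 24.4 ± 1.74 CPM per kilobase. Nipal1 stood in place 4 at 7.46 ± 0.13 CPM per kilobase, below Cnnm2 (10.8 ± 2.33) and Trpm7 (10.1 ± 0.17). Its libraries, at 7.35 to 7.60, overlapped those of Cnnm3 (7.25 ± 0.76), and those of Cnnm3 overlapped those of Nipa2 (7.16 ± 0.08). Nipal1, which stood apart from every other member in WT, was therefore within the range of Cnnm3 in KO. Cnnm2 and Trpm7 overlapped, as did Nipal3 and Nipa1, so the order within these pairs is not resolved in KO.

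**Figure D2:**
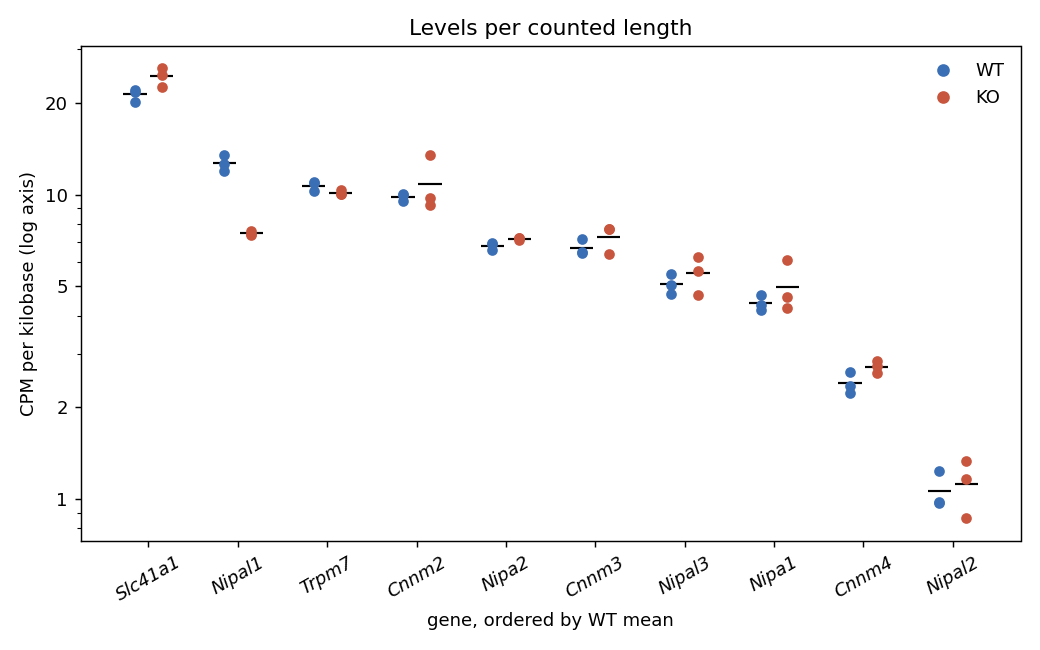
CPM per kilobase of counted length (log axis) for the 10 members, ordered by WT mean. Points are the 3 libraries of each group and black lines the group means; Nipal1 goes from 12.7 in WT to 7.46 CPM per kilobase in KO, beside Nipa2 and Cnnm3.

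The 4 relatives of Nipal1 did not share its pattern. Nipal2, a little-studied NIPA-like gene, had the lowest level of the members, at 3.70, 3.74 and 4.72 CPM in WT and 5.10, 4.45 and 3.30 CPM in KO. The groups overlapped, and with 159 counts in KO replicate 3 the counting error was 7.93%. Nipal3, another NIPA-like gene, stood at 35.6, 41.5 and 38.3 CPM in WT and 42.4, 47.4 and 35.5 CPM in KO (log2 fold change 0.12 ± 0.11 SE), with KO replicate 3 the lowest of all 6.

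Nipa1 and Nipa2 lie next to each other on chromosome 7, both on the minus strand with 15090 bases between them. Nipa1 stood at 14.9, 13.3 and 13.8 CPM in WT and 19.4, 13.5 and 14.7 CPM in KO, and KO replicate 1 alone was above the WT range. Nipa2, an endosomal and plasma membrane magnesium carrier, stood at 49.0, 46.6 and 48.5 CPM in WT and 51.0, 50.0 and 50.9 CPM in KO. The groups of Nipa2 did not overlap, but their means of 48.0 and 50.6 CPM were close (log2 fold change 0.08 ± 0.06 SE). Both values are uncertain where genes overlap. Of the counted length of Nipa2, 18.6% (1316 bases) also belongs to exons of Cyfip1 on the opposite strand, a more abundant gene with means of 166 CPM (WT) and 188 CPM (KO). Of Nipa1, 14.9% (473 bases) is shared with the antisense transcript A230056P14Rik, at 3.94 and 4.34 CPM. No source used here states whether the counting kept strand, so reads from overlapping genes cannot be told apart.

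In the CNNM genes, KO replicate 3 parted from the other KO libraries in both directions. Cnnm2, which in kidney sits on the basolateral membrane, stood at 33.8, 35.8 and 35.5 CPM in WT and 32.8, 34.6 and 48.0 CPM in KO. KO replicate 1 lay below the WT range, KO replicate 2 within it and KO replicate 3 above it, and the log2 fold change of 0.13 ± 0.14 (SE) became -0.06 ± 0.08 without KO replicate 3. Cnnm3 showed the opposite order, at 41.5, 41.3 and 45.7 CPM in WT and 49.4, 49.3 and 41.0 CPM in KO, with KO replicate 3 the lowest of all 6. Cnnm4, which in gut exports magnesium toward the blood, stood at 10.8, 11.3 and 12.6 CPM in WT and 12.5, 13.1 and 13.7 CPM in KO, and the groups overlapped narrowly. Cnnm3 and Cnnm4 are neighbours on chromosome 1, on the same strand and 3102 bases apart. In KO replicate 3 Cnnm4 had its highest value and Cnnm3 its lowest, but the next values were close. These were 13.1 CPM in KO replicate 2 for Cnnm4 and 41.3 CPM in WT replicate 2 for Cnnm3. Counting error alone came to as much as 4.31% in Cnnm4 and 2.25% in Cnnm3.

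The fourth CNNM gene and the regulators of the family were described from a list of 15 further magnesium transport genes. Cnnm1 stood at 38.0, 33.9 and 34.8 CPM in WT and 29.6, 31.9 and 36.5 CPM in KO (-0.12 ± 0.09 SE, adjusted p = 0.711, edgeR), with KO replicate 3 within the WT range. Ptp4a1, which encodes a phosphatase that binds CNNM proteins, stood at 61.4, 58.9 and 52.7 CPM in WT, at 58.9 and 58.2 CPM in KO replicates 1 and 2 and at 152 CPM in KO replicate 3. The log2 fold change of Ptp4a1 rested on that library: it was 0.64 ± 0.45 (SE, adjusted p = 0.717, edgeR) with it and 0.02 ± 0.08 (SE, adjusted p = 0.939, edgeR) without it. The library with the highest Ptp4a1 was thus also the one with the highest Cnnm2. KO replicate 3 stood apart in many other genes as well, and a link between Ptp4a1 and Cnnm2 was not tested. Ptp4a2, the most abundant gene of the list, averaged 481 CPM in WT and 532 CPM in KO, and Ptp4a3 at 35.8 and 40.0 CPM. Arl15, a small GTPase that modifies CNNM proteins, stood at 19.5 and 21.1 CPM. None of these genes passed the test.

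The channel genes differed in abundance and in spread. Trpm7, a channel fused to a kinase, had 4955 to 6372 counts per library, the most of the members in WT but fewer than Slc41a1 in KO replicates 1 and 2. It stood at 124, 116 and 123 CPM in WT and 114, 117 and 113 CPM in KO (log2 fold change -0.08 ± 0.06 SE), and KO replicate 2 lay above WT replicate 2. Trpm6, its close relative and the magnesium uptake channel of kidney and gut, stood at 5.16, 3.74 and 4.30 CPM in WT. In KO it stood at 11.05 and 8.55 CPM in replicates 1 and 2 and at 3.84 CPM in replicate 3, inside the WT range. Its log2 fold change of 0.83 ± 0.38 (SE) did not pass (adjusted p = 0.581, edgeR). Without KO replicate 3 it did, at 1.15 ± 0.16 (SE, adjusted p = 0.000821, edgeR, where 2.26% of the tested genes were called). With any other library left out Trpm6 did not pass (adjusted p = 0.751 to 0.787, edgeR). Summed markers of endothelium (187, 131 and 88.9 CPM) and immune cells (66.4, 51.3 and 37.3 CPM) also fell over KO replicates 1 to 3. So did those of epithelium, red blood cells, smooth muscle and stroma, but not those of granulosa cells, theca and oocytes. A link to Trpm6 was not tested.

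The fold changes of the 3 SLC41 genes differed in sign. Slc41a1, a sodium-magnesium exchanger of the plasma membrane, stood at 99.2, 108 and 107 CPM in WT and 122, 128 and 111 CPM in KO. The groups did not overlap, though KO replicate 3 lay close to the highest WT library. The means were 105 ± 4.801 and 120 ± 8.57 CPM (log2 fold change 0.20 ± 0.07 SE). Slc41a2 stood at 9.75, 10.7 and 11.9 CPM in WT and 9.04, 8.29 and 7.97 CPM in KO (-0.35 ± 0.12 SE, adjusted p = 0.40, edgeR). Slc41a3, which has been placed in mitochondria, stood at 12.3, 12.6 and 10.8 CPM in WT and 17.0, 15.4 and 14.3 CPM in KO (0.39 ± 0.10 SE, adjusted p = 0.296, edgeR). In both relatives the groups did not overlap, with KO lower in Slc41a2 and higher in Slc41a3, and neither passed the test with all libraries. Of all tested genes, 15.6% did not overlap between the groups (7.89% lower and 7.68% higher in KO). Slc41a3 passed without KO replicate 3 (0.44 ± 0.11 SE, adjusted p = 0.0451, edgeR), where 2.26% of the tested genes were called.

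**Figure D3:**
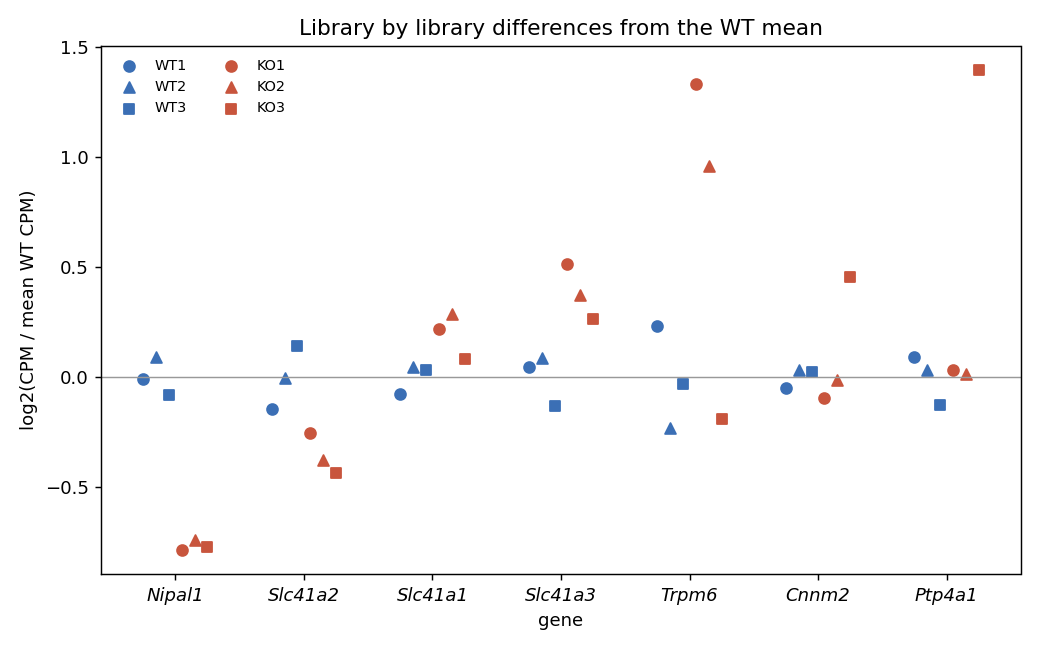
log2 ratio of the CPM in each library to the WT mean (vertical axis) for Nipal1 and 6 other magnesium genes; blue symbols are WT and red symbols KO, with 1 symbol shape per replicate number. The KO libraries of Nipal1 lie together near -0.77, whereas KO replicate 3 (square) parts from the other KO libraries in Trpm6, Cnnm2 and Ptp4a1.

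Of the 15 further genes, all passed the filter on low counts and 0 passed the test in edgeR, with 2 at an unadjusted p under 0.05 (9.16% of all tested genes). The median log2 fold change was 0.12, 11 were positive and 4 negative, and the groups did not overlap in 3, where they did not in 15.6% of all tested genes. These 3 were Slc41a2, Slc41a3 and Mmgt1, a gene shared with the endoplasmic reticulum membrane complex, with means of 65.0 CPM (WT) and 70.6 CPM (KO). The mitochondrial channel gene Mrs2 averaged 17.0 CPM in WT and 16.4 CPM in KO. Magt1 and Tusc3, oligosaccharyltransferase subunits also proposed as magnesium transporters, stood at 161 and 170 CPM and at 79.7 and 79.5 CPM. Tmem94, which encodes a magnesium pump of the endoplasmic reticulum, stood at 86.9 and 94.7 CPM and Mmgt2 at 36.3 and 37.0 CPM. Nipal4, the skin-expressed member of the NIPA family, was scarce, at 0.33 and 0.39 CPM.

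**Figure D4:**
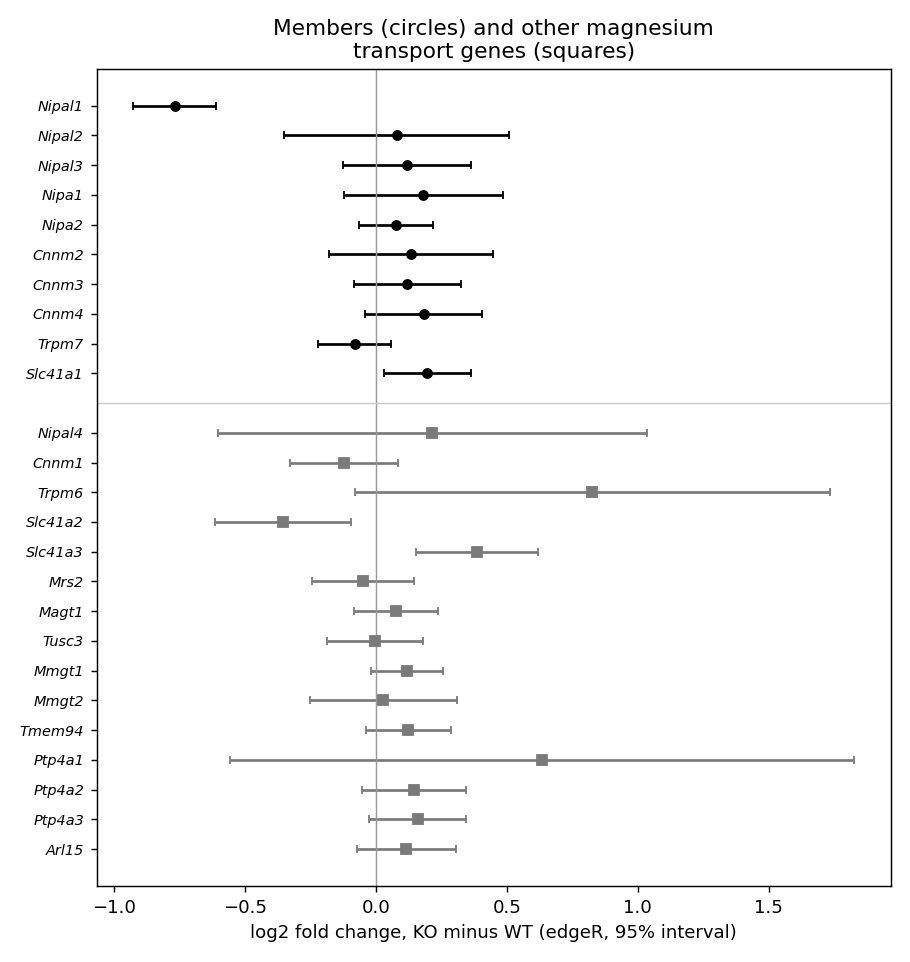
log2 fold change of KO minus WT (horizontal axis) with its 95% interval, from edgeR, for the 10 members (circles) and the 15 further magnesium transport genes (squares). Nipal1 at -0.77 lies outside the range of the others, which run from -0.35 in Slc41a2 to 0.83 in Trpm6, and Trpm6 and Ptp4a1 have the widest intervals.

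Genes through which the kidney handles magnesium were mostly scarce in these cells, apart from Pcbd1. Of 12, 6 were filtered for low counts (Cldn14, Cldn16, Cldn19, Kcna1, Slc12a3 and Casr), with at most 9 counts in any library, and Cldn16 had none. None of the other 6 passed the test in edgeR, with 2 at an unadjusted p under 0.05 (9.16% of all tested genes). The groups did not overlap in 2 of the 6, where they did not in 15.6% of all tested genes. Pcbd1, which encodes an enzyme that recycles tetrahydrobiopterin, had the highest level, with means of 15.9 CPM (WT) and 14.97 CPM (KO), and its WT mean of 19.6 CPM per kilobase was above that of every member but Slc41a1. The claudin gene Cldn10 stood at 2.94 and 2.04 CPM (-0.53 ± 0.21 SE, adjusted p = 0.482, edgeR). Egf (2.10 and 1.99 CPM), Kcnj10 (0.73 and 0.69 CPM) and Fxyd2 (0.42 and 0.47 CPM) were low in each group.

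Most tested genes that flank Nipal1 on chromosome 5 had lower means in KO than in WT, by less than Nipal1 did, and none passed the test. Of 32 genes within 500 kb, 12 were tested and 0 passed in edgeR (smallest adjusted p = 0.328), with 5 at an unadjusted p under 0.05, where 9.16% of all tested genes were. Their median log2 fold change was -0.27, with 9 negative and 3 positive. The nearest tested gene on one side was Cnga1, a cyclic nucleotide-gated channel gene of photoreceptors, whose annotated start lies 3.52 kb from that of Nipal1 on the opposite strand, so that the genes run away from each other. Cnga1 stood at 7.49, 8.39 and 8.07 CPM in WT and 6.14, 6.29 and 5.005 CPM in KO (-0.46 ± 0.13 SE, 95% interval -0.76 to -0.16, adjusted p = 0.328, edgeR). The nearest tested gene on the other side was Txk, a TEC family kinase gene of T cells 24.9 kb away. Txk stood at 4.65, 3.90 and 3.53 CPM in WT and 2.41, 3.11 and 2.99 CPM in KO (-0.51 ± 0.17 SE, 95% interval -0.90 to -0.12, adjusted p = 0.431, edgeR). In each of these neighbours the groups did not overlap.

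Each of the 6 tested genes within 100 kb, a distance chosen after the values were seen, had a negative fold change, from -0.51 to -0.27. In 5 of them every KO library lay below every WT library, where 7.89% of all tested genes did so. Besides Cnga1 and Txk these were Tec (4.23 and 3.14 CPM), Gm5868 (4.005 and 3.30 CPM) and Zar1. Zar1, an oocyte gene needed for the first steps of embryo development, averaged 57.3 ± 7.31 CPM in WT and 46.3 ± 3.17 CPM in KO (SD, n = 3), in cells whose oocyte marker sum was also lower in KO. The part of oocyte RNA in it was not tested. Nfxl1 stood at 66.6, 59.2 and 61.8 CPM in WT and 46.2, 49.7 and 60.0 CPM in KO, and the groups overlapped (-0.27 ± 0.10 SE, adjusted p = 0.458, edgeR). Without KO replicate 3 it was the 1 neighbour past the threshold, at -0.38, where 2.26% of the tested genes were called. The 6 tested genes beyond 100 kb ran from -0.36 (Gabrb1) to 0.26 (Corin).

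**Figure D5:**
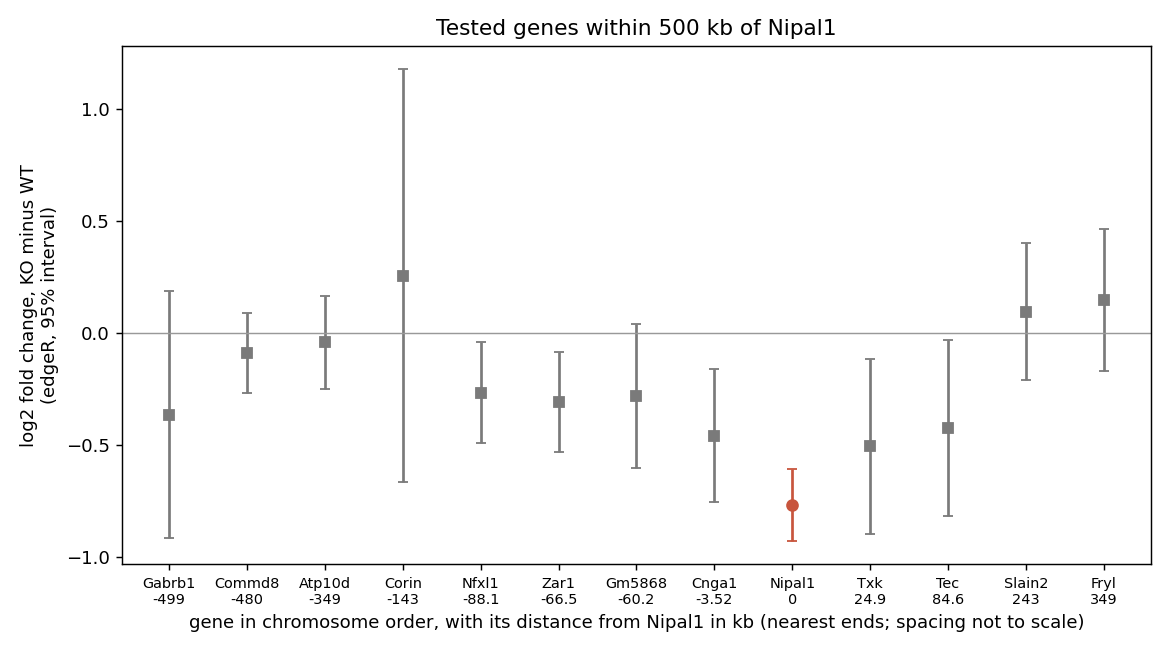
log2 fold change of KO minus WT with its 95% interval (vertical axis, edgeR) for Nipal1 (circle) and the 12 tested genes within 500 kb (squares), in chromosome order with the distance in kb under each name. The 6 genes within 100 kb lie between -0.51 and -0.27, above Nipal1 at -0.77.

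The genes whose pattern over the 6 libraries was most like that of Nipal1 were found by the root mean square difference of log2(CPM divided by the gene's mean), among 11304 other protein-coding genes averaging 5 CPM or more. The closest was Nr0b1, an orphan nuclear receptor gene that represses steroidogenic genes, with a difference of 0.095. It stood at 20.3, 25.8 and 22.2 CPM in WT and 13.9, 13.7 and 12.3 CPM in KO, with WT replicate 2 the highest library, as for Nipal1. The order within groups otherwise differed. WT replicate 3 lay above WT replicate 1 in Nr0b1 and below it in Nipal1. The highest KO library was replicate 1 in Nr0b1 and replicate 2 in Nipal1. Next came Capn6 (0.12; 10.4 CPM in WT and 7.01 CPM in KO) and Plekhb1 (0.12; 6.63 and 4.46 CPM). The angiotensin II receptor gene Agtr2 (0.13; 14.5 and 7.66 CPM) and the ubiquitin ligase gene Lnx1 (0.13; 32.4 and 21.98 CPM) followed. The likeness is measured on 6 libraries that fall into 2 groups, so any gene lower in KO to a like degree scores well. Among the other members, Trpm7 came nearest at place 2075, and the 7 further members with at least 5 CPM were between places 7415 and 10064.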

How the data were processed

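Each deposited file gives raw counts for 1 library, as whole numbers of reads or fragments over a gene's exons. The submitters' processing notes name Trimmomatic 0.36 (trimming), STAR 2.5.2b and featureCounts from Subread 1.5.2, on GRCm38; how strand, read pairs and reads matching several places were handled is not given in the sources. Lengths and coordinates are those of the files. Identifiers were matched to GENCODE M21 (49056 of 49315). In edgeR 4.0.16 (R 4.3.3), filterByExpr kept 18250 genes, TMM set the scaling, and KO was compared with WT by the robust quasi-likelihood test on genotype, with p-values adjusted by Benjamini-Hochberg across those genes. The threshold was an adjusted p of 0.05, and intervals are at 95%. The steps were tested on simulated counts. Alternatives were RLE and upper quartile scaling, DESeq2 1.42.0, limma 3.58.1 (voom with quality weights), other filters, the replicate number as a block and leaving out each library. The members, lists and named genes were chosen with earlier results of these data known. The naming rule covered the members, both magnesium lists, the 5 genes most like Nipal1 and its nearest tested neighbours; other neighbours were named after their values were seen. The values of 1 gene of the kidney list are not reported here.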

Additional observations from a re-analysis of the deposited data

How the results depend on the processing

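The log2 fold change of Nipal1 stayed between -0.81 and -0.73 over 13 alternatives and was -0.77 with the replicate block. These values are a description, since the gene was chosen on these libraries. No other member was past the threshold under any of them. The number of all genes past the threshold, 40, became 221 in DESeq2, 85 in limma-voom, 199 with no filter, 21 with a filter at a mean of 1 CPM and 15 with the replicate block, and 8 to 421 when a library was left out, the highest without KO replicate 3. The further magnesium transport genes past it numbered 0 to 2 when a library was left out (Trpm6 and Slc41a3 without KO replicate 3), and the genes within 500 kb of Nipal1 numbered 0 to 1 (Nfxl1, without the same library). For these the cause was not tested. With genes from a mean of 1 CPM, 3 of the 5 genes most like Nipal1 were the same. All 10 members kept their place in the WT order under TPM, RLE scaling and without WT replicate 2 or 3, and 8 did without WT replicate 1. Samples with the same replicate number did not deviate together (correlations -0.02, 0.07 and -0.03). With 3 libraries per group, this cannot show whether the samples were collected or processed in pairs. At 159 to 6372 counts per member and library, counting error limited Nipal2 most.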

Other observations

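The chromosome 7 region that holds Nipa1 and Nipa2 contained 1 called gene within 500 kb, among 11 tested, where 0.219% of all tested genes were called. Oca2, a melanosomal transporter gene 219.8 kb from Nipa1 that was named after its value was seen, rose from 5.12 ± 1.04 CPM in WT to 14.6 ± 3.02 CPM in KO (SD, n = 3; log2 fold change 1.51 ± 0.19 SE, adjusted p = 0.0246, edgeR), higher in 3 of 3 KO libraries. Of the 11 tested genes around Nipa1, Nipa2 among them, 9 were positive in fold change, and the median was 0.18. Of all 18250 tested genes, 9294 were positive. The regions around the other members, those of Nipal1 included, held no called gene, and their medians ran from -0.27 around Nipal1 to 0.13 around Slc41a1.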
